A study of Mus musculus with 6 samples.

Results

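The genes described here carry out the synthesis of bile acids from cholesterol, their conjugation to amino acids and their sodium-dependent uptake into hepatocytes. They are 10 genes chosen by name, Cyp7a1, Cyp7b1, Cyp8b1, Cyp27a1, Cyp39a1, Hsd3b7, Akr1d1, Slc27a5, Baat and Slc10a1, of 28908 gene names on the array, and 15 of its 45281 probes carry one of those names. They were measured in whole liver of 6 male C57BL/6 mice on normal chow, each fasted for 24 h before sampling. In 1 group 3 mice were wild type, and in the other 3 littermates were Creb3l3 KO, that is, deficient in the gene for CREBH, a membrane-anchored transcription factor of the endoplasmic reticulum. Whether the deletion covers the whole body or the liver alone was not given in the sources used here. Each mouse gave 1 sample and 1 Illumina WG-6 bead array, so the replicates are separate animals, and the comparison is knockout against wild type, all animals fasted.

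In the classic pathway Cyp7a1 adds the first hydroxyl group to cholesterol and sets the rate, and Cyp8b1 adds the hydroxyl group that makes cholic acid rather than chenodeoxycholic acid and its muricholic acid products. In the alternative pathway Cyp27a1 oxidises the sterol side chain, and Cyp7b1 and Cyp39a1 hydroxylate the ring of oxysterols. Hsd3b7 and Akr1d1 rebuild the sterol ring for both routes. Slc27a5 activates bile acids with coenzyme A, and Baat joins them to taurine or glycine. Slc10a1, the transporter NTCP, returns conjugated bile acids from portal blood to the hepatocyte.

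The arrays were not equally bright, which bears on every value below. A detection p under 0.05 was reached by 15504 to 16224 probes on the 3 wild-type arrays, by 11846 and 15867 on those of knockout replicates 1 and 2, and by 4302 on that of knockout replicate 3. Of the 1224 probes with a wild-type mean signal of at least 1000, 99.3% lay below all wild-type signals on knockout replicate 1. The share was 13.4% on knockout replicate 2 and 100% on knockout replicate 3. Across probes, normalized signals of knockout replicate 3 had Pearson correlations of 0.676 to 0.697 with those of the others, and the other 5 arrays with each other at 0.973 to 0.993. Changes are therefore given first for 5 arrays, without knockout replicate 3, and then for all 6. The targeted gene, Creb3l3, gave signals of 929 to 1201 on the wild-type arrays against 148, 283 and 87.9 on those of the knockout, where replicate 3 was not above background, and where its probe lies relative to the deletion was not given in the sources used here. Among liver markers Ttr and Apoa1 had signals of 24761 to 28461 on the wild-type arrays and the Alb probe 198 to 223, so a dim probe does not show a scarce transcript and no probe is ranked against another.

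On the 5 arrays the 5 cytochrome P450 hydroxylases among the members lay lower in the knockout than in wild type, while Hsd3b7, Slc27a5, Baat and Slc10a1 did not separate by genotype. This does not extend to every hydroxylase of bile acid metabolism, since Cyp2c70, Cyp3a11 and Cyp2a12, which were not members, had log2 changes of 0.48, 0.24 and 0.13, none called. Cyp7b1 had the largest difference, 4.06-fold lower, followed by Cyp7a1 at 1.72-fold, Cyp8b1 at 1.62-fold, Cyp39a1 at 1.54-fold and Cyp27a1 at 1.34-fold. None of the 9 tested genes passed an adjusted p of 0.05 in limma, where 0.338% of the 10055 tested genes did. With all 6 arrays none of the 9 was called either, and of all 10171 genes 0% were. On the 5 arrays an unadjusted p under 0.05 with a lower knockout mean was reached by 5 of the 9, all of them hydroxylases, against 7.02% of all genes, and on all 6 arrays by 0 of the 9, against 2.98%. Akr1d1 was not tested, because it was above background on too few arrays. The division into hydroxylases and other members follows enzyme class, was made with the values known, and was not tested.

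Promoter sequence was at hand in RefSeq (GRCm38.p6) for 5 of the 10 genes, Cyp8b1, Cyp27a1, Hsd3b7, Akr1d1 and Slc10a1. The 250 bases before the start are shown for Cyp8b1 and Cyp27a1, hydroxylases lower in both knockout mice, and for Hsd3b7, which did not separate. Capitals mark the HNF4A core CAAAGTCCA and the TATA box TATAAA, searched on both strands together with the cAMP response element half-site TGACG over 250 bases before and 50 after the start.
Cyp8b1 (chr9:121916306-121916555, minus strand): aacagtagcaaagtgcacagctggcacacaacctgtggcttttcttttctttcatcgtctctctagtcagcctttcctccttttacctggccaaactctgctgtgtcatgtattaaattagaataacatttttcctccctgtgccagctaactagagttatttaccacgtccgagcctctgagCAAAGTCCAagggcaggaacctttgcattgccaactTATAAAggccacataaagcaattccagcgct
Cyp27a1 (chr1:74713285-74713534, plus strand): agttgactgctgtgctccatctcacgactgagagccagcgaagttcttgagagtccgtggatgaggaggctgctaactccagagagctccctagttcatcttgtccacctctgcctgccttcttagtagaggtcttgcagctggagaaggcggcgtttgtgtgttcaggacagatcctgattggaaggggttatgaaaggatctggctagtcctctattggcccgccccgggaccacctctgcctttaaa
Hsd3b7 (chr7:127800359-127800608, plus strand): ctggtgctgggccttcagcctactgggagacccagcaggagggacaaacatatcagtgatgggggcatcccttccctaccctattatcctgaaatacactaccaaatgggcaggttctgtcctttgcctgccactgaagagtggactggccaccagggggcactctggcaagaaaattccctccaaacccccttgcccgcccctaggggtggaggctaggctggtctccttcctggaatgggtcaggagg

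The Cyp8b1 window held all of these motifs, at positions that do not overlap. Its HNF4A core lay from base -67 to base -59 and its TATA box from base -31 to base -26, both on the coding strand, and its TGACG lay from base 43 to base 47, after the start. The HNF4A core occurs in 0.475% of 32851 RefSeq promoter windows of this length, TATAAA in 13.6% and TGACG in 20.8%. None of these letters occurred in the windows of Cyp27a1, Hsd3b7 or Akr1d1, and of the pair of Slc10a1 windows 1 held TATAAA, on the reverse strand. A match describes the sequence and is not evidence of binding.

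The rate-limiting enzyme Cyp7a1 had deposited signals, in arbitrary units, of 711, 425 and 452 in the wild-type mice (replicates 1, 2 and 3, an order kept throughout) against 155, 408 and 84.9 in the knockout mice. Each knockout signal lay below the lowest wild-type signal, and that of knockout replicate 3 was not above background. The arrays of knockout replicates 1 and 3 were dim, so their lower signals say little of this gene alone. After normexp background correction, quantile normalization and log2, Cyp7a1 stood at 8.62 ± 0.24 (SD, n = 3) in wild-type mice against 7.83 ± 0.29 (SD, n = 2) in knockout mice. The log2 change was -0.79 ± 0.21 (SE; limma adjusted p = 0.241), with a 95% interval of -1.27 to -0.30. With knockout replicate 3 included it was -1.82 ± 0.87 (limma adjusted p = 0.653), a larger value that rests on the undetected signal of that array. Without knockout replicate 2 it was -0.996 and called (limma adjusted p = 0.0226), in a fit that has the dim array of knockout replicate 1 alone and called 16.7% of all its probes.

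Cyp8b1, the sterol 12-alpha-hydroxylase, gave a bright signal with little spread among wild-type mice. The wild-type mice gave signals of 10880.4, 10291 and 10404 and the knockout mice 2069, 8387 and 336, all lower. On the dim arrays of knockout replicates 1 and 3 nearly all bright probes were lower. On the log2 scale the normalized level was 13.21 ± 0.10 (SD, n = 3) against 12.51 ± 0.32 (SD, n = 2), a log2 change of -0.69 ± 0.19 (SE; limma adjusted p = 0.25) with an interval of -1.13 to -0.26. On normalizing all 6 arrays, knockout replicate 3 stood at 12.98, within the wild-type levels of 12.83 to 13.02, and the log2 change was -0.45 ± 0.29 (limma adjusted p = 0.653). In the fit with 1 knockout array, without knockout replicate 2, which called 16.7% of probes, it was -0.91 (limma adjusted p = 0.0154).

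Cyp27a1, the mitochondrial sterol 27-hydroxylase, was covered by 3 probes. At the brightest the signals of the wild-type mice were 3733, 2751 and 2970.2, and those of the knockout mice 813, 2649 and 125. Its log2 change was -0.43 ± 0.15 (SE; limma adjusted p = 0.362) with an interval of -0.78 to -0.07, and the remaining probes gave -0.29 and -0.21, with intervals that include 0. At each of the 3 probes knockout replicates 1 and 2 lay below all wild-type mice after normalization, as they did at 16.4% of all tested probes. With all 6 arrays the brightest probe gave -0.34 ± 0.20 (limma adjusted p = 0.653). Its groups still did not overlap, as at 13.4% of all tested probes with the knockout lower.

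Cyp7b1, the oxysterol 7-alpha-hydroxylase, differed most between the genotypes and also among wild-type mice. Its signals were 5623, 1882 and 2392 in the wild-type mice, a 2.99-fold range, against 254, 1085 and 134 in the knockout mice. All 6 arrays detected the probe. All 3 knockout signals lay below the lowest wild-type signal, as those of nearly all bright probes did on knockout replicates 1 and 3. The normalized log2 level was 11.32 ± 0.68 (SD, n = 3) in wild-type mice against 9.30 ± 0.48 (SD, n = 2) in knockout mice, a log2 change of -2.02 ± 0.38 (SE; limma adjusted p = 0.115), with an interval of -2.90 to -1.15. By its p-value it ranked 89 of 14345 tested probes. Without wild-type replicate 1, the mouse with the highest level, the change was -1.65 and without wild-type replicate 2, the lowest, -2.30.

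The direction of Cyp7b1 was the same under all 18 other settings tried, and its call was not. An adjusted p under 0.05 was reached under 5 of the 18, among them cyclic loess normalization (limma adjusted p = 0.0279), a larger offset after background correction (0.0487) and the fit without knockout replicate 2 (0.0154), with its 1 dim knockout array and 16.7% of probes called. With all 6 arrays the log2 change was -1.28 ± 0.72 (limma adjusted p = 0.653) and the groups overlapped, since knockout replicate 3 stood at 11.26 after normalization, within the wild-type levels of 10.50 to 11.82. That array gave 134 at this probe and a median of 83.7 over all probes.

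Cyp39a1, which hydroxylates 24-hydroxycholesterol, was measured close to background. At its brighter probe the signals were 153, 179 and 149 for wild type against 105, 149 and 81.6 for the knockout, where the array medians began at 83.7 and ended at 95.02. The log2 change was -0.62 ± 0.25 (SE; limma adjusted p = 0.393) with an interval of -1.19 to -0.05. Knockout replicate 2 had a deposited signal inside the wild-type range, so that its lower normalized level rests on the correction and normalization. The second probe was above background on 0 of 3 wild-type arrays and was not tested.

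Hsd3b7, Slc27a5 and Baat, members that are not hydroxylases, gave bright signals whose groups overlapped. Hsd3b7, which oxidises the 3-beta-hydroxyl group of the sterol ring, gave signals of 6603, 5379 and 4946 in wild-type mice against 2297, 5794 and 181 in the knockout at its brighter probe. Its log2 change was 0.01 ± 0.16 (SE; limma adjusted p = 0.981), with an interval of -0.36 to 0.39, and the second probe gave 0.06. The estimates of all 5 hydroxylases, each at its brightest probe, lie below that interval, but the intervals of Cyp7a1, Cyp8b1, Cyp27a1 and Cyp39a1 overlap it. The estimates of the other Cyp27a1 probes lie within it, and no difference between genes was tested. A change of Hsd3b7 within its interval, in either direction, could not be told from none.

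Slc27a5, the bile acyl-CoA synthetase of bile acid recycling, had signals of 4617, 3947 and 4040.4 in wild type and of 1455, 3976 and 116 in the knockout. The log2 change was -0.16 ± 0.16 (SE; limma adjusted p = 0.697) with an interval of -0.53 to 0.21, and -0.08 at the dimmer probe. Knockout replicate 1 lay among the wild-type mice after normalization and knockout replicate 2 below them. Baat, which makes taurine conjugates in the mouse, had signals of 3258, 2394 and 2192 against 874, 2936 and 117, and a log2 change of -0.02 ± 0.16 (limma adjusted p = 0.974) with an interval of -0.39 to 0.36. Both knockout mice lay within the wild-type range for Baat on the normalized scale.

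Slc10a1, the uptake transporter, was measured only near background by its 1 probe. The wild-type mice gave 152, 144 and 118 and the knockout mice 108, 148 and 89.1, of which the last was not above background. The log2 change was -0.04 ± 0.22 (SE; limma adjusted p = 0.955), with an interval of -0.54 to 0.46, and with all 6 arrays it was 0.30 ± 0.36, of the opposite sign. Akr1d1, the steroid 5-beta-reductase, had signals of 92.6, 101 and 96.1 in wild type and of 94.7, 89.4 and 81.0 in the knockout. It was above background on 1 of 3 wild-type arrays and on 0 knockout arrays, so these data give no comparison for it.

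**Figure D1:**
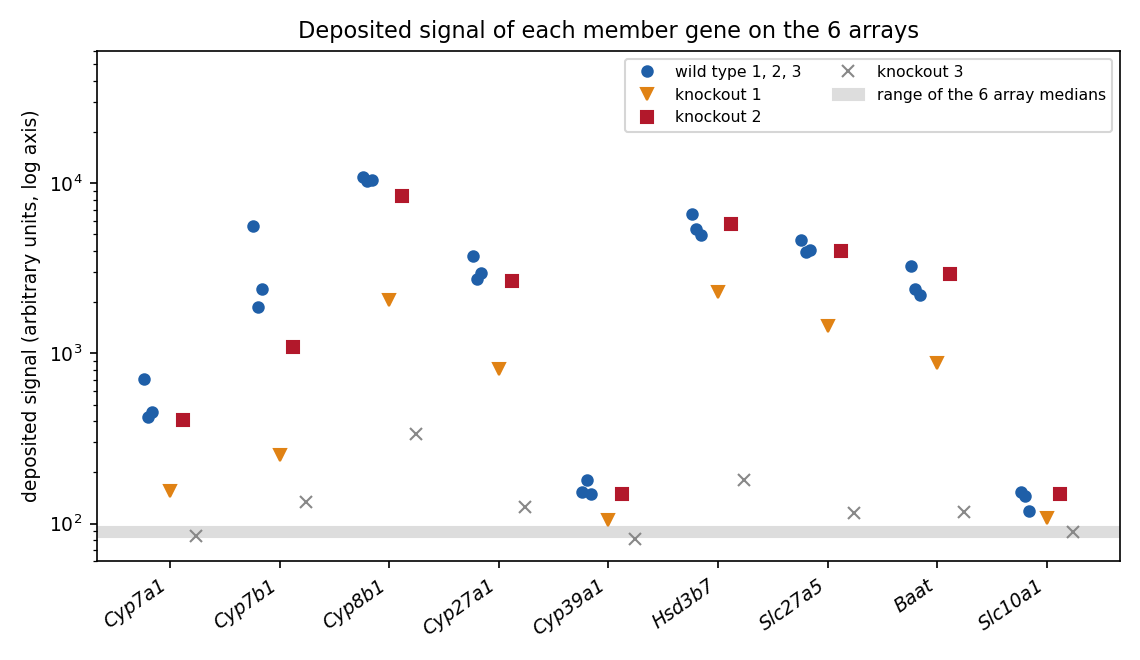
Deposited signal (arbitrary units, log axis) of the brightest tested probe of each of the 9 tested genes on the 6 arrays, 1 point per mouse; the grey band spans the array medians, 83.7 to 95.02. For Cyp7b1 all knockout points lie below the wild-type points, and for Hsd3b7, Slc27a5 and Baat knockout replicate 2 lies within the wild-type range. On the dim arrays of knockout replicates 1 and 3 nearly all bright probes lie below wild type.

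Knockout replicate 2 allows a comparison with no normalization, because its array was about as bright as those of wild type, with a mean signal of 246 against 219 to 252. As a share of the wild-type mean, its deposited signal was 32.9% for Cyp7b1, 77.0% for Cyp7a1, 79.7% for Cyp8b1 and 84.0% for the brightest probe of Cyp27a1, but 94.3% and 98.5% for its other probes and 93.1% for Cyp39a1. It was 103% for Hsd3b7, 94.6% for Slc27a5 (96.4% at its dimmer probe), 112% for Baat and 107% for Slc10a1, so that the shares of Cyp27a1, Cyp39a1 and Slc27a5 did not separate by role. Over the 1224 probes with a wild-type mean of at least 1000 the median share was 109.9%, and 5 of them had a lower share than Cyp7b1. The Cyp8b1 share had 99 probes below it.

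On the dimmer array of knockout replicate 1 all shares were lower. The median share of those 1224 probes was 36.1%. Cyp7b1 stood at 7.70%, with 4 of the 1224 lower, Cyp8b1 at 19.7%, the brightest Cyp27a1 probe at 25.8% and Cyp7a1 at 29.4%, while Hsd3b7 stood at 40.7%, Slc27a5 at 34.6% and Baat at 33.4%. The other Cyp27a1 probes stood at 27.8% and 29.5%, and the members near background did not follow that order, with Cyp39a1 at 65.5% and Slc10a1 at 78.2%. Cyp7a1, with a wild-type mean of 529, was not among the 1224 probes either. Its share holds more background than those of the bright members. On the array of knockout replicate 3 the median share was 5.28%, and Cyp7b1 at 4.08%, Cyp8b1 at 3.19% and Hsd3b7 at 3.21% all lay below it, with no separation by role.

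**Figure D2:**
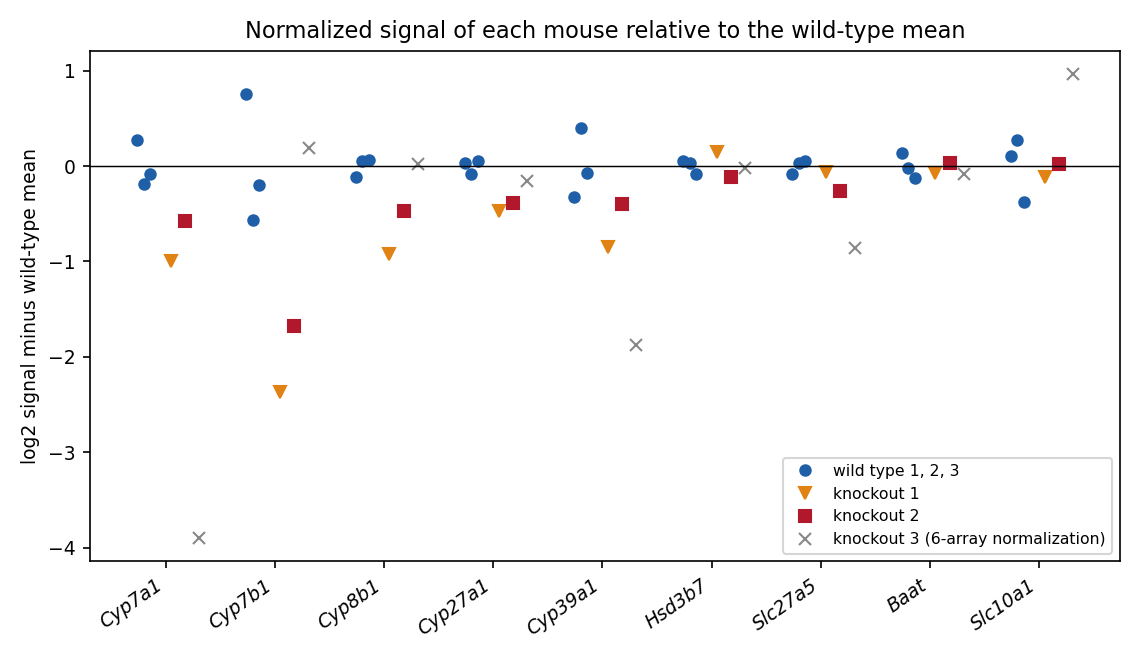
Normalized log2 signal of each mouse minus the wild-type mean for the 9 tested genes, with circles for wild type, triangles and squares for knockout replicates 1 and 2, and crosses for knockout replicate 3, which was normalized with all 6 arrays. Both knockout replicates 1 and 2 lie below every wild-type mouse for the 5 hydroxylases on the left; crosses scatter from -3.90 for Cyp7a1 to 0.97 for Slc10a1.

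Both knockout mice of the 5 arrays lay below all 3 wild-type mice for 5 of the 9 tested genes, the hydroxylases, where 15.3% of all tested genes had such a separation. None of the 9 separated in the opposite direction, against 14.0% of all genes. The median log2 change was -0.69 over the 5 hydroxylases, -0.03 over the 4 remaining members and -0.01 over all 10055 genes. With all 6 arrays 3 of the 9 genes, Cyp7a1, Cyp27a1 and Cyp39a1, had every knockout mouse below every wild-type mouse, against 12.1% of genes, and the median over all genes was then -0.25.

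**Figure D3:**
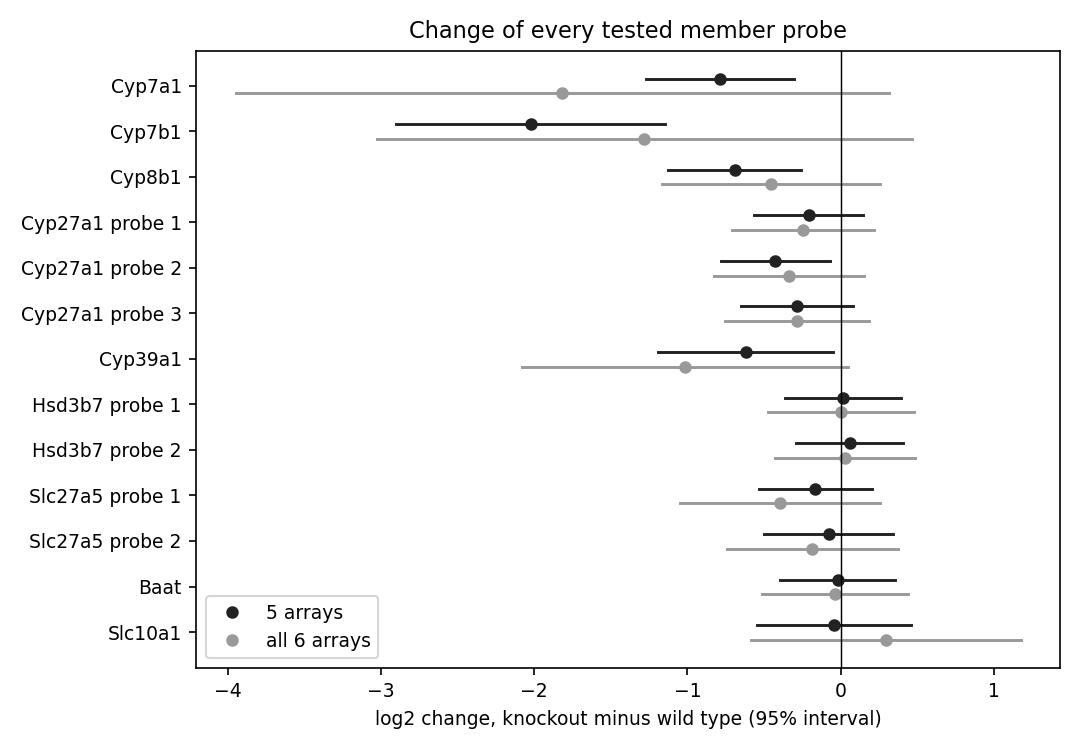
Log2 change, knockout minus wild type, with its 95% interval from limma for each of the 13 tested probes, in black for 5 arrays and in grey for all 6. In the 5 arrays the intervals of Cyp7a1, Cyp7b1, Cyp8b1, Cyp39a1 and 1 of 3 Cyp27a1 probes lie below 0, and with all 6 arrays each interval includes 0.

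The members with the most alike profiles over the 5 arrays were Hsd3b7 and Slc27a5, whose log2 signals, centred on their own means, differed by a root mean square of 0.123. Cyp7a1 was nearest to Cyp8b1 among the members, at 0.222, and Cyp7b1 was the farthest member from each of the others. Among all tested probes, those of Pkn2 (0.0507), the locus named OTTMUSG00000000231 on the array (0.0714) and Ttc17 (0.0730) were nearest to Cyp7a1, and those of Mppe1 (0.0263), Cmip (0.0271) and Ddo (0.0416) were nearest to Cyp8b1. Their log2 changes ran from -0.91 to -0.68, and none was called. Changes close to those of Cyp7a1 and Cyp8b1 follow from choosing these probes by likeness over the same arrays. Likeness over 5 arrays describes these mice only.

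Around the members, 5 lists of other bile acid genes were read from the same fit. Of all 10055 tested genes 5251 lay below 0, and 7.02% had an unadjusted p under 0.05 with a lower knockout mean. Enzymes of peroxisomal side-chain shortening had 9 tested genes of 10, of which 0 were called by limma at their brightest probe, 1 had an unadjusted p under 0.05 and 7 lay below 0, with a median log2 change of -0.17. Scp2, whose gene encodes sterol carrier protein 2 and the peroxisomal thiolase that removes the bile acid side chain, stood at -0.50 ± 0.16 (SE; limma adjusted p = 0.323) at the brightest of its 3 tested probes. A second Scp2 probe fell 2.53-fold, and it was the 1 called probe of the members and these lists, where 0.342% of all 14345 probes were called. Which transcripts each probe reads was not given in the sources used here.

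That Scp2 probe gave signals of 7842, 5927 and 6539 in wild-type mice against 947, 3038 and 174 in knockout mice. On the 5 arrays its normalized groups did not overlap, as at 16.4% of all tested probes with the knockout lower. The normalized log2 level was 12.53 ± 0.08 (SD, n = 3) against 11.19 ± 0.01 (SD, n = 2), a log2 change of -1.34 ± 0.15 (SE; limma adjusted p = 0.022). The remaining tested probe stood at -0.42. Leaving out each wild-type mouse in turn ended the call (limma adjusted p of 0.106 to 0.128), as did the fit with all 6 arrays, where the log2 change was -1.01 (limma adjusted p = 0.653). It was kept under 10 of the 18 other settings. The acyl-CoA synthetase Slc27a2 stood at -0.35, the thioesterase Acot8 at -0.32 (-0.30 and -0.68 at its other tested probes) and the thiolase Acaa1b at -0.30, none of them called. The Acot8 probe at -0.68 lay near background and was above it on 0 knockout arrays. It was tested through the wild-type arrays alone, which favours a lower knockout value.

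Regulators of bile acid synthesis had 14 tested genes of 17, of which 0 were called by limma, 1 had an unadjusted p under 0.05 at its brightest probe and 10 lay below 0, with a median of -0.21. Klb, the co-receptor through which the intestinal hormone FGF15 acts on hepatocytes, had signals of 247, 229 and 206 in wild type and of 115, 201 and 84.8 in the knockout. Each knockout signal lay below the wild-type ones, though the arrays of knockout replicates 1 and 3 were dim. The log2 change of Klb was -0.68 ± 0.19 (SE; limma adjusted p = 0.252). The nuclear receptors Nr1i3 (CAR), Nr1i2 (PXR) and Nr1h4 (FXR) stood at -0.35 (-0.45 to 0.11 over its other tested probes), -0.24 and -0.21, none of them called. Nr0b2, the repressor SHP, was not tested, with signals of 89.1, 90.3 and 96.5 in wild type and of 98.3, 90.8 and 83.4 in the knockout.

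Transporters other than Slc10a1 showed 0 limma calls, and at the brightest probe of each gene 0 had an unadjusted p under 0.05. Export carriers of the canalicular and basolateral membranes had 8 tested genes of 12 and a median of -0.12. The phospholipid floppase Abcb4 stood at -0.23, Abcc2 at -0.24, Abcc4 at 0.19 and the aminophospholipid flippase Atp8b1 at 0.14. Other uptake carriers had 4 tested of 7 and a median of -0.07, with Slc22a7 at -0.58, Slco1a4 at 0.55, Slco2b1 at -0.11 and Slco1b2 at -0.02. Slc22a7 was measured near background, was not above it on knockout replicates 1 and 3, and had groups that overlapped. A second, dimmer Slco1b2 probe differed, with signals of 1579.6, 1221 and 1295 against 394, 813 and 92.9. On the 5 arrays its normalized groups did not overlap, as at 16.4% of all tested probes with the knockout lower. Its log2 change was -0.67 ± 0.21 (SE; limma adjusted p = 0.308), and a second Abcc2 probe stood at -0.44. Further bile acid enzymes, outside the member list, had 5 tested of 7, 0 called at the brightest probe by limma or at an unadjusted p under 0.05, and a median of 0.22, with Cyp2c70, the mouse enzyme of muricholic acid synthesis, at 0.48, Cyp3a11 at 0.24, the epoxide hydrolase Ephx1 at 0.22 and Cyp2a12 at 0.13.

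**Figure D4:**
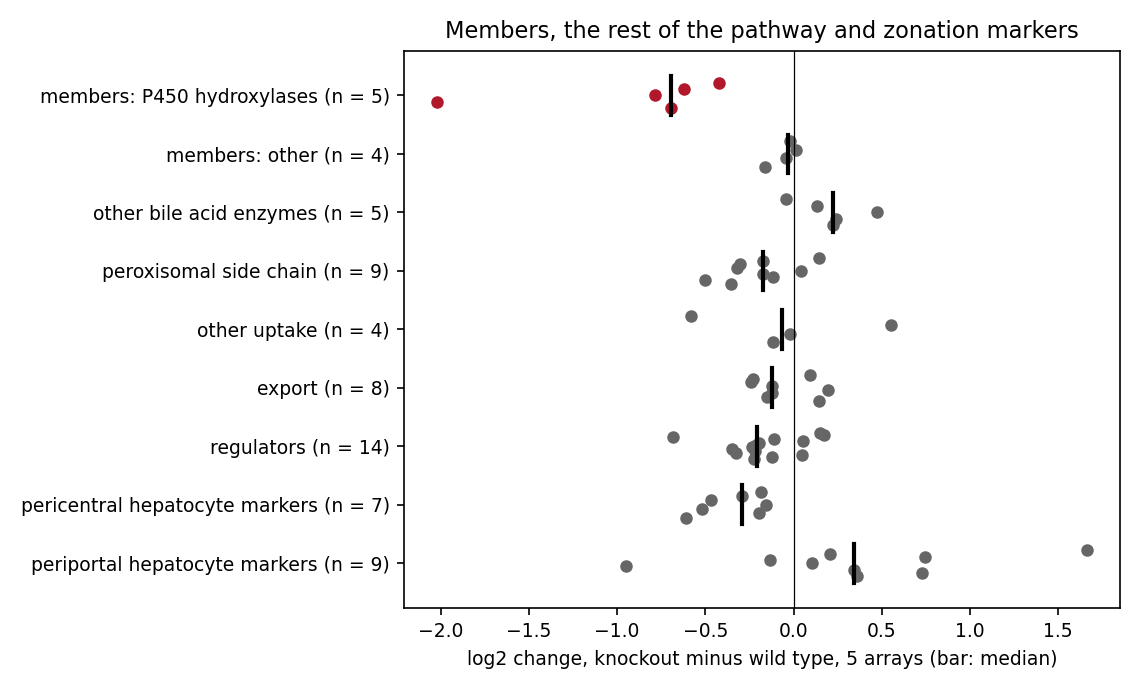
Log2 change, knockout minus wild type, on 5 arrays, 1 point per gene at its brightest tested probe and a bar at the median, for the members by enzyme class, 5 further lists of bile acid genes and 2 lists of zonation markers. The 5 hydroxylases lie from -2.02 to -0.43 and the 4 other members from -0.16 to 0.01.

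Cyp7a1 is known to be more abundant in hepatocytes near the central vein, so markers of the lobule's zones were read beside them. Pericentral markers had 7 tested genes of 10. Each of the 7 lay below 0, with a median log2 change of -0.29, 0 called by limma and 3 at an unadjusted p under 0.05. They ran from Slc1a2 at -0.61, Gulo at -0.52 and Cyp2e1 at -0.47 to Glul at -0.15, and Lect2 was above background on none of the 5 arrays. The groups of Glul overlapped, with knockout replicate 1 at 6.30, above the wild-type levels of 5.72 to 5.89. With all 6 arrays Glul stood at 0.70, 6 of the 7 lay below 0 and the median was -0.30. The summed normalized signal of the 10 markers on a linear scale was 32021 to 34980 in wild type and 26333 and 23874 in the knockout, so that the groups did not overlap. Cyp2e1 alone made up 76.2% of the wild-type sum, and without it the sums overlapped, 6876 to 9516 against 7293 and 5936. Periportal markers had 9 tested genes, 2 of them below 0, a median of 0.34, 0 called and 4 at an unadjusted p under 0.05, 3 of them higher. The 1 lower was Hal at its brightest probe, at -0.95, while its other probe stood at 1.26. With all 6 arrays 4 of the 9 periportal genes lay below 0, and the median was 0.01. On the 5 arrays the summed signal of the periportal markers overlapped, 24087 to 28118 against 27868 and 26622. Of all 10055 tested genes 5251 lay below 0. An unadjusted p under 0.05 was reached by 7.02% with a lower and 4.95% with a higher knockout mean. With all 6 arrays 7144 of all 10171 tested genes lay below 0, with a median of -0.25. The part of zonation in the differences of the hydroxylases was not tested, and in whole liver fewer cells of a type and less RNA per cell cannot be told apart.

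Markers of hepatocytes as a whole had 8 tested genes of 10, 4 of them below 0, a median of 0.03 and summed signals of 79837 to 86350 in wild type against 86627 and 81285. Of the cholangiocyte markers, Krt7, Krt19, Epcam and Cftr were above background on none of the 5 arrays, and the summed signal was 631 to 848 against 973 and 1065. Among the 4 tested, Tff3, a secreted mucosal peptide, was the 1 called, with a log2 change of 2.55 (limma adjusted p = 0.00271). Erythroid markers had a summed signal of 21485 to 26218 in wild type and of 9252 and 23306 in the knockout, the lower value in knockout replicate 1. Sums were 1521 to 1802 against 1668 and 1919 for Kupffer cells, 2229 to 2422 against 1831 and 2264 for sinusoidal endothelium, 3945 to 4346 against 4123 and 4804 for stellate cells, and 134 to 141 against 189 and 139.8 for lymphocytes. Clec4g made up 63.3% of the wild-type endothelial sum, and without it the sums were 815 to 861 against 844 and 1080. Dcn made up 84.9% of the stellate sum, and without it they were 567 to 710 against 519 and 595. Of the 6 lymphocyte markers on the array 1 was detected on all 5 arrays, so their sum lies near background. The part of these in the result was not tested.

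**Figure D5:**
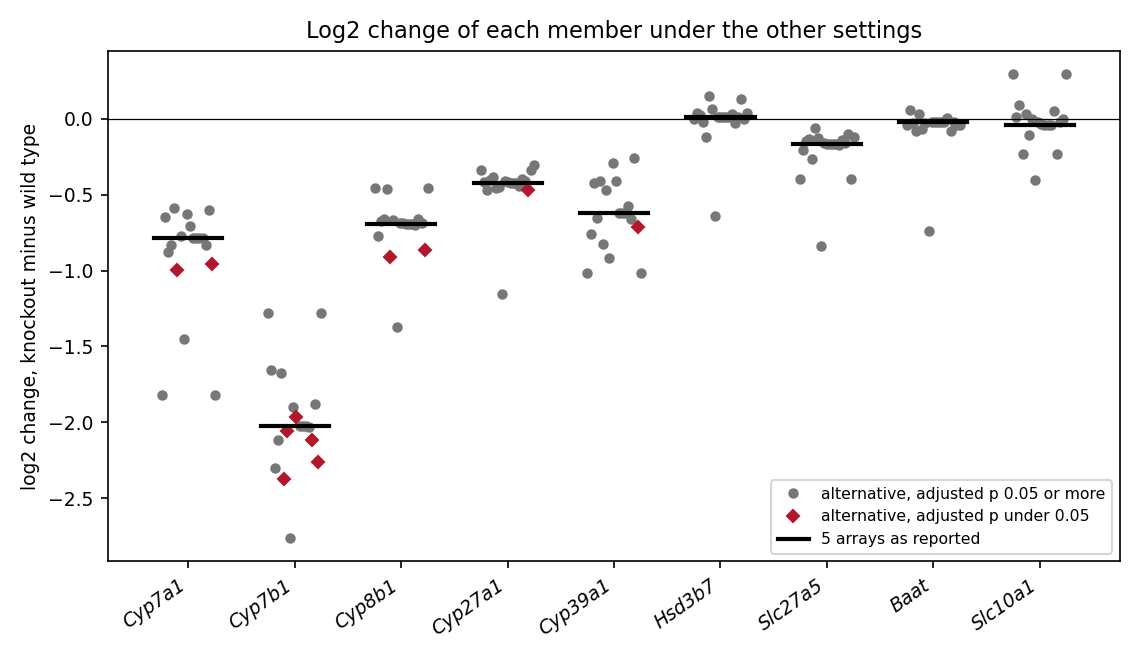
Log2 change of the 9 tested genes under each other setting tried, with a bar for the 5 arrays as reported, grey points where the adjusted p was 0.05 or more and red diamonds where it was lower. The 5 hydroxylases lie below 0 under every setting shown, from -2.76 to -0.26, and the points of Hsd3b7, Baat and Slc10a1 lie on both sides of 0.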

How the data were processed

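Per the file headers, the deposited array tables give an average signal (intensity) per probe, by its values neither normalized nor background-subtracted, and a detection p-value computed by the authors' software, BeadStudio 3 per the submitters' processing notes. The authors' value table, a deposited intensity table that matched quantile-normalized signals with the columns of wild-type replicates 2 and 3 exchanged, was an alternative only.

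The signals were corrected with normexp (limma 3.58.1, R 4.3.3; negative controls estimated from the detection p-values, offset 16), quantile normalized and set on the log2 scale. A probe was tested where at least 3 arrays gave it a detection p under 0.05, which left 14345 probes for 5 arrays and 14494 for all 6. In the 5 arrays a probe could pass through the wild-type arrays alone but not through the knockout arrays alone. The filter thus favoured probes lower in the knockout, and its part in the shares over all genes was not tested. lmFit and eBayes had genotype as the only term. All tests were two-sided, p-values were adjusted over all tested probes by Benjamini-Hochberg, and a call is an adjusted p under 0.05. Gene counts use the probe of highest mean for each gene, called its brightest. The number of arrays limits the precision.

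Members and lists were chosen with earlier results of these data known. Named genes are all members, called genes of the lists with up to 4 of the smallest p each, and the 3 nearest to Cyp7a1 and to Cyp8b1. Symbols were updated through a RefSeq gene table of GRCm38.p6: 27740 probes had a current symbol, 8037 a synonym and 9504 no match. Tested on simulated data for the 5 arrays (12783 probes), 49 of 50 probes were called at a log2 change of -1 and 49 of 50 at 1, and 10 of 12583 unchanged probes were called. The simulated arrays were equally bright, and only probes well above background were changed. Their spread between mice was smaller than that of Cyp7a1 or Cyp7b1 among wild-type mice. The simulation therefore does not give the power for the members, and an uncalled member is not shown to be unchanged.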

Additional observations from a re-analysis of the deposited data

How the results depend on the processing

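On 5 arrays, 49 probes were called, 9 higher and 40 lower, and 0 members. The number of probes was 0 with all 6 arrays (with or without a replicate block), 83 with cyclic loess (25 higher, 58 lower), 4 with median scaling (0 higher, 4 lower), 85 with no background correction, 108 with an offset of 50, 1 with no filter, 122 with a trended and robust variance, 32 with array weights, 83 in the authors' value table and 2832 with all 6 arrays and array weights. Leaving out 1 mouse gave 9 to 2234 probes and 0 to 3 members. The 3 members, Cyp7a1, Cyp7b1 and Cyp8b1, were called without knockout replicate 2, where the dim knockout replicate 1 is alone and assumed to vary like wild type. Called members numbered 1 (Cyp7b1) with cyclic loess, with an offset of 50 and with the replicate block, and 5, the hydroxylases, with all 6 arrays and array weights, which gave knockout replicates 1, 2 and 3 24.5%, 3.34% and 0.268% of the total weight. That last setting and the 6-array block were chosen after seeing the data. Where limma called 0 probes, in all 6 arrays, 80 had an unadjusted p under 0.05 with a higher and 478 with a lower knockout mean. The cause of these shifts was not tested.

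Across probes, the deviations of same-numbered mice from their group means had correlations of -0.05, -0.05 and 0.04 for numbers 1, 2 and 3. These values showed no pairing by replicate number. They cannot exclude it, since they rest on 3 mice per group and on knockout means that include replicate 3. With the replicate block 47 probes were called in place of 49, and Cyp7b1 had a log2 change of -2.12 (adjusted p = 0.0104, over all settings 0.00156 to 0.776), and the called Scp2 probe one of -1.32 (adjusted p = 0.052).

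The tested probes of the 5 hydroxylases kept their direction under all alternatives. Signs turned as follows. With all 6 arrays, with or without the replicate block, log2 changes were 0.30 for Slc10a1, 0.14 for Slco2b1, 0.019 for Nr1h4, -0.059 for Cyp2c70, -0.58 for Atp8b1, -0.064 for Abcc4 and 0.76 for Ddo. Median scaling, which moved the median of all probes to -0.42, gave -0.64 and -0.65 at the Hsd3b7 probes, -0.15 for Cyp3a11, -0.56 for Cyp2a12, -0.46 for Ephx1, -0.27 for Cyp2c70, -0.14 for Slco1a4, -0.39 for Atp8b1 and -0.018 for Abcc4. Cyclic loess gave 0.083 for Slco1b2, array weights 0.0026 for Baat, 0.049 for Slc10a1 and 0.030 for Slco1b2, and the replicate block -0.025 for Hsd3b7. With all 6 arrays and array weights they were 0.00091 for Slc10a1, 0.032 at the dimmer Slc27a5 probe, 0.12 for Slco1b2 and -0.064 for Ephx1. Leaving out 1 mouse gave ranges of -0.078 to 0.055 for Baat, -0.23 to 0.094 for Slc10a1, -0.12 to 0.15 for Hsd3b7, -0.22 to 0.069 at the dimmer Slc27a5 probe, -0.15 to 0.14 for Slco1b2, -0.019 to 0.30 for Atp8b1 and -0.12 to 0.55 for Ephx1. Creb3l3 lost its call with all 6 arrays (adjusted p = 0.574, with the block 0.70) and with median scaling (adjusted p = 0.175). Signals near background limit Slc10a1, Cyp39a1 and Akr1d1.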

Other observations

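The array of knockout replicate 3 detected 11 of the 15 member probes, where the other arrays detected 13 or 14. One of the 11 was the second Cyp39a1 probe, with a deposited signal of 89.6 and a detection p of 0.047, which no other array detected. On normalizing all 6 arrays that signal became 7.04 on the log2 scale, and the wild-type signals of 91.2 and 88.4 in replicates 1 and 3 became 4.27 each.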
